A study of Homo sapiens with 12 samples.

Results

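The genes described are 10 that encode the alpha and beta chains of tubulin, taken by symbol from the deposited mRNA table of 19659 genes. The alpha genes are TUBA4A, TUBA1A, TUBA1B and TUBA1C, and the beta genes are TUBB, TUBB2A, TUBB2B, TUBB4B, TUBB6 and TUBB1. They were selected on family and on the FPKM contrast of control and DMAG libraries, known beforehand, so their levels in control and treated cells are given as a description without a test. Each gene's level is the sum of FPKM over its transcripts, where FPKM stands for fragments normalised by transcript length and by the size of the library, so that genes can be compared with one another.

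The labels give the source of the RNA as HEL, a human erythroleukaemia line. Of the 6 RNA-Seq libraries, 3 were controls, for which no dose, day or vehicle is recorded. The other 3 came from cells given DMAG, a glucoside of dimethylated ellagic acid from the plant Sanguisorba, at 40 µg/ml for 3 days. The series title names inhibited proliferation and differentiation towards megakaryocytes as its subject. The labels do not say that replicates were separate cultures, so the spread between them may be technical.

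Alpha and beta tubulin form the dimers from which microtubules, the spindle and the tracks of intracellular transport are built. The isotypes are encoded by separate genes with very similar coding sequences and differ mainly at the tail of the protein. Megakaryocytes and platelets are known for TUBB1, the beta isotype of the platelet's marginal band of microtubules, and platelets also hold much TUBA4A. Cells also tune tubulin mRNA to the amount of free dimer, by decay of the mRNA while it is being translated.

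Defining markers of the labelled cell type were at or near 0, so the identity of the line rests on the label and was not tested. GP9 and EPB42 were listed at 0 in all 6 libraries, and GATA1 reached at most 0.142 FPKM. The megakaryocyte gene ITGA2B was at 0.0732, 0.0413 and 0.133 FPKM in the controls and at 0.229, 0.330 and 0.313 with DMAG. Of 13 megakaryocyte markers 2 were tested, and 1 of them, the transcription factor gene NFE2, was higher with DMAG. The 13 summed to 4.58 to 5.59 FPKM in the controls and 12.4 to 14.4 with DMAG, nearly all of it NFE2; the other 12 summed to 1.13 to 1.26 and 1.04 to 1.78, with overlap. The 16 erythroid markers summed to 4.72 to 5.67 FPKM in the controls, and to 5.54, 5.26 and 1953 in the DMAG replicates in turn. All 10 granulocyte markers entered the fit, which called 4 of them higher and 5 lower in DMAG libraries (limma, adjusted p under 0.05). They summed to 4080 to 4406 FPKM in the controls and 3249 to 3803 with DMAG. MPO, the myeloperoxidase gene, fell from 1089 ± 29.1 to 815 ± 82.9 FPKM and PRTN3, the proteinase 3 gene, from 916 ± 61.0 to 227 ± 17.3 (SD, n = 3 each). These 2 are examples of lower levels only, and 4 other markers of the list were called higher. Of 10 monocyte markers 5 were tested, of which LYZ, ITGAM, TLR4 and MNDA were higher and FCGR1A lower (limma), while CD14, CSF1R, CD68 and CD163 were among those below the filter. The monocyte markers summed to 222 to 228 FPKM in the controls and 534 to 601 with DMAG. DMAG replicate 3 stood apart through globin genes (HBB at 1367 FPKM, and at most 0.0731 in any other library). Control replicate 1 stood apart through ALB, the albumin gene (24.9 FPKM, and at most 0.184 in any other library). The part of these markers and libraries in the tubulin levels was not tested.

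TUBA4A and TUBB4B were the members whose DMAG libraries all lay above the controls, and TUBA1B, the most abundant member, lay below. The promoters of these 3 genes are shown because their levels differed in opposite directions. Each is the 250 bases before a transcription start in RefSeq (GRCh38.p14), read 5′ to 3′ on the strand of the gene. They cover chr2:219253919-219254168 on the minus strand, chr9:137241037-137241286 on the plus strand and chr12:49131396-49131645 on the minus strand. The TUBA4A window lies inside the RefSeq span of the gene, which reaches to 219254740, so it is not the sequence before the whole gene. Capitals mark TATAA, the core of the TATA box, on either strand. They also mark the CCAAT box on either strand, and finally the GC box, which reads GGGCGG, likewise on either strand.

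TUBA4A: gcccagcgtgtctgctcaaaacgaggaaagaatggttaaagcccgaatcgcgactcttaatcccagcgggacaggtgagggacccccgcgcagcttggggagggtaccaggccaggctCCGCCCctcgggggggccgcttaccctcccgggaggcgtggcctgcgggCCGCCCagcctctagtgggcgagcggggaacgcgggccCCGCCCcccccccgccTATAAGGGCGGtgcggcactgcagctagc
TUBB4B: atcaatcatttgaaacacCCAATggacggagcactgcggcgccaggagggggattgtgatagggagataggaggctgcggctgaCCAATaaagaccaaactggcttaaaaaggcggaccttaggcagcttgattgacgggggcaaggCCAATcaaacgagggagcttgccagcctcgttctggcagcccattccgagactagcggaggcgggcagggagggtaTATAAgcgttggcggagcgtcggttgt
TUBA1B: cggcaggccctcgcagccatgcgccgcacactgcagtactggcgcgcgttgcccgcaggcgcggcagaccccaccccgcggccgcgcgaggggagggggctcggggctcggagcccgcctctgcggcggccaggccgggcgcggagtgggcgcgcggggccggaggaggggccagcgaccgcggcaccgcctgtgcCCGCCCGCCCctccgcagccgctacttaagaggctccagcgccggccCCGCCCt

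RefSeq windows were matched for all 10 members, 14 windows in all. The TUBA4A window held 1 TATAA, which began 29 bases before the start, and 4 GGGCGG, of which 1 directly follows the TATAA. The TUBB4B window held 1 TATAA, 27 bases before the start, and 3 CCAAT. The TUBA1B window held 3 GGGCGG, of which 2 overlap, and neither of the other motifs. Among 35116 promoter windows of the same length, 18.9% held TATAA, 32% held CCAAT and 42.6% held GGGCGG. The motif TGANTCA, present in 6.57% of those windows, was in none of the 14 member windows. These matches describe the letters of the windows and are no evidence of binding.

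Among the alpha genes, TUBA4A differed most between the groups. TUBA4A (ENSG00000127824; chr2:219249710-219254740) was at 32.5, 8.55 and 8.87 FPKM in the controls and at 109, 99.3 and 96.1 FPKM with DMAG. All 3 DMAG libraries lay above all controls, while control replicate 1 lay apart from the other controls. The mean was 16.6 ± 13.7 FPKM (SD, n = 3) in the controls and 101 ± 6.61 (SD, n = 3) with DMAG, 6.10-fold higher, or 11.6-fold without control replicate 1. On the log2(FPKM + 1) scale the difference was 2.80 with a standard error of 0.48. It was 3.40 without control replicate 1 and 2.84 without DMAG replicate 3. In bulk RNA, a change in the number of cells with the mRNA and a change in mRNA per cell cannot be told apart.

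TUBA1B (ENSG00000123416; chr12:49127782-49131395), a ubiquitous alpha isotype, was the most abundant member in all 6 libraries. It was at 1188, 1199 and 1200 FPKM in the controls and at 1019, 1062 and 1079 with DMAG. The groups did not overlap, and the DMAG mean of 1053 ± 30.6 (SD, n = 3) was 1.14-fold lower than the control mean of 1196 ± 6.39 (SD, n = 3). The log2 difference was -0.18 (SE 0.04), and -0.08 when all libraries were scaled to the same FPKM sum. It was -0.19 without control replicate 1 and -0.20 without DMAG replicate 3.

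TUBA1A and TUBA1C are neighbours of TUBA1B in a cluster of alpha genes on chromosome 12. TUBA1A (ENSG00000167552; chr12:49184795-49189080), known mainly from developing neurons, was at 43.0, 24.7 and 6.49 FPKM in the controls and at 31.5, 18.6 and 48.6 with DMAG. The ranges overlapped in part, with control replicate 3 below and DMAG replicate 3 above all libraries of the other group. The log2 difference of 0.63 (SE 0.68) became 1.19 without control replicate 1 and 0.98 without DMAG replicate 2, and -0.09 without control replicate 3 and 0.31 without DMAG replicate 3. TUBA1C (ENSG00000167553; chr12:49227926-49274600) was at 144, 134 and 147 FPKM in the controls and at 131, 156 and 120 with DMAG. These groups overlapped as well, and the log2 difference was -0.07 (SE 0.10), or 0.03 with libraries scaled to the same sum. It was 0.02 without DMAG replicate 3, -0.17 without DMAG replicate 2, -0.11 without control replicate 2, -0.04 without control replicate 3, -0.05 without DMAG replicate 1 and -0.05 without control replicate 1. Coding sequences of TUBA1A, TUBA1B and TUBA1C are nearly identical, and how reads matching several genes were shared is not given in the sources used here, so the division between them is uncertain.

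Among the beta genes, TUBB (ENSG00000196230; chr6:30720352-30725422), the main beta isotype of dividing cells, led in every library. It was at 508, 543 and 550 FPKM in the controls and at 488, 495 and 487 with DMAG. Each DMAG library lay below each control, by a log2 difference of -0.12 (SE 0.04) that shrank to -0.02 with libraries scaled to the same sum. It was -0.16 without control replicate 1 and -0.12 without DMAG replicate 3. TUBB4B (ENSG00000188229; chr9:137241287-137243707), a beta isotype of most tissues, was at 194, 198 and 199 FPKM in the controls and at 208, 222 and 210.1 with DMAG. Here each DMAG library lay above each control. The means were 197 ± 2.82 and 213 ± 7.14 FPKM (SD, n = 3 each), a 1.08-fold difference with a log2 value of 0.12 (SE 0.04), or 0.22 with libraries scaled to the same sum. It was 0.11 without control replicate 1 and 0.13 without DMAG replicate 3.

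The other 4 beta genes were near or below 1 FPKM. TUBB6 (ENSG00000176014; chr18:12307669-12329826), a widely expressed minor isotype, was at 1.29, 1.19 and 0.917 FPKM in the controls and at 0.731, 0.647 and 0.601 with DMAG. All DMAG libraries were below all controls, with means of 1.13 ± 0.192 and 0.659 ± 0.0659 FPKM (SD, n = 3 each), 1.72-fold lower with DMAG. The log2 difference was -0.36 (SE 0.09) with a pseudocount of 1 FPKM and -0.69 with a pseudocount of 0.1 FPKM, and was -0.31 without control replicate 1 and -0.33 without DMAG replicate 3. TUBB2A (ENSG00000137267; chr6:3153666-3157544) was at 1.05, 1.16 and 1.33 FPKM in the controls and at 1.67, 1.04 and 1.55 with DMAG, so the groups overlapped. The log2 difference was 0.14 (SE 0.12), or 0.23 with a pseudocount of 0.1 FPKM. Leaving out 1 library moved it to 0.26 (DMAG replicate 2), 0.067 (DMAG replicate 1), 0.097 (control replicate 1) or 0.099 (DMAG replicate 3).

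TUBB2B and TUBB1 did not reach the mean of 0.5 FPKM required of genes entering the fit. TUBB2B (ENSG00000137285; chr6:3224277-3227653), nearly identical to TUBB2A and therefore also uncertain, was at 0.136, 0.0992 and 0.0512 FPKM in the controls and at 0.0434, 0.0703 and 0.121 with DMAG. TUBB1 (ENSG00000101162; chr20:59016438-59026654), the platelet beta isotype, was at 0.126, 0.0781 and 0.0739 FPKM in the controls and at 0.0414, 0.0385 and 0.137 with DMAG. The DMAG mean of TUBB2B was 0.818 times the control mean, or 1.04 times without control replicate 1. Both genes overlapped between groups, and their highest DMAG value was in replicate 3, the library with the globin mRNAs.

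**Figure D1:**
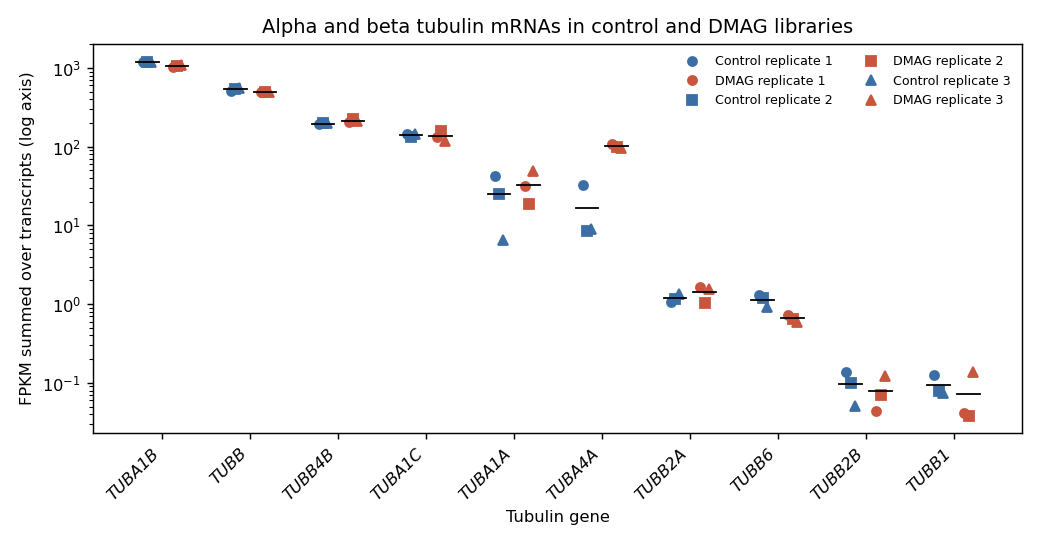
FPKM of the 10 tubulin genes in each of the 6 libraries (log axis; points are libraries, marked by group and replicate, and black lines are group means of 3 libraries). TUBA4A has 3 DMAG libraries from 96.1 to 109 FPKM above controls from 8.55 to 32.5, whereas TUBA1A spreads over 6.49 to 48.6 without separating the groups.

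By level, the members in control libraries ran from TUBA1B through TUBB, TUBB4B and TUBA1C to TUBA1A, TUBA4A, TUBB2A, TUBB6, TUBB2B and TUBB1. The first 4 were separated by more than their range. TUBA1A and TUBA4A overlapped in range, as did TUBB2A and TUBB6, and TUBB2B and TUBB1. With DMAG, TUBA4A stood above TUBA1A and next to TUBA1C, whose lowest library, at 120 FPKM, exceeded the highest TUBA4A library. TUBB2A and TUBB6 no longer overlapped, whereas TUBB2B and TUBB1 did.

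Across the whole table, 10394 genes were tested with limma, and 48.6% were called at a Benjamini-Hochberg adjusted p under 0.05. These divide into 22.4% with DMAG above the controls and 26.1% with DMAG below (2333 and 2717 genes, or 3221 and 1862 with libraries scaled to the same sum). The median log2 change of all genes tested was -0.01. Of the 10 members, 8 entered the fit. Their calls are not given, since their levels are a description without a test. Groups did not overlap for 59.5% of all genes tested and for 5 members, 2 with DMAG above and 3 with DMAG below. Nothing is read from the members' counts, because the same contrast was known when they were chosen.

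The summed mRNA of the isotypes differed far less than that of TUBA4A. The 4 alpha genes summed to 1379 ± 25.2 FPKM in the controls and 1323 ± 28.5 with DMAG (SD, n = 3 each). Without TUBA4A the sums were 1362 ± 11.6 and 1222 ± 35.03 FPKM. The 6 beta genes summed to 733 ± 25.05 FPKM in the controls and 706 ± 11.4 with DMAG. All 10 together summed to 2111 ± 2.29 FPKM in the controls and 2029 ± 34.97 with DMAG, each DMAG library below each control. The FPKM of all mRNAs summed to 354252 ± 4715 in the controls and 330245 ± 2380 with DMAG, also without overlap. The 10 made up 0.596% ± 0.00825 of that sum in the controls and 0.614% ± 0.00755 with DMAG. The direction for the 10 together thus depended on the scale. The ratio of alpha to beta FPKM was 1.88 ± 0.1004 in the controls and 1.88 ± 0.0387 with DMAG (SD, n = 3 each).

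Within the alpha mRNA, TUBA4A made up 2.31%, 0.626% and 0.651% in the controls and 8.43%, 7.44% and 7.15% with DMAG. The means differed by 6.48 percentage points, and by 6.10 to 7.03 when each library was left out in turn. TUBA1B made up 86.8% ± 2.03 of alpha FPKM in the controls and 79.6% ± 0.676 with DMAG. TUBA1C stayed within its spread at 10.3% ± 0.490 and 10.2% ± 1.39, and TUBA1A was at 1.78% ± 1.29 and 2.48% ± 1.12 (SD, n = 3 each). Within the beta mRNA, TUBB went from 72.8% ± 0.569 to 69.5% ± 0.464 and TUBB4B from 26.8% ± 0.544 to 30.2% ± 0.521 (SD, n = 3 each). The ranges of these last 2 shares did not overlap between groups.

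**Figure D2:**
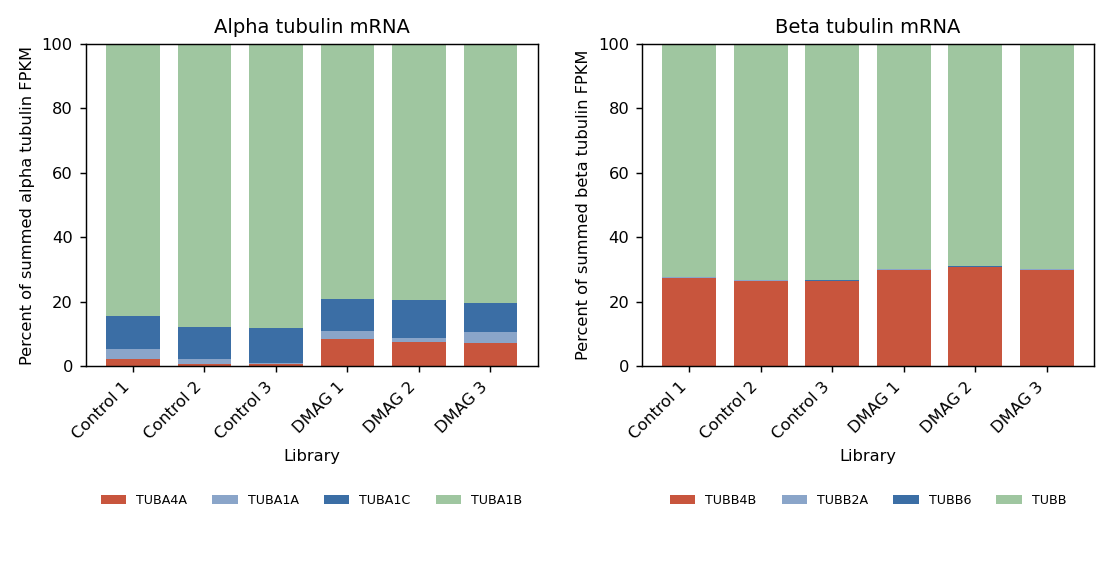
Percent of summed alpha tubulin FPKM (left) and beta tubulin FPKM (right) from each isotype in the 6 libraries; bars add to the group's total, and TUBB2B and TUBB1, each under 0.02% of beta FPKM, are not drawn. TUBA4A fills 7.15% to 8.43% of the alpha bar with DMAG and 0.626% to 2.31% in the controls.

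Single transcripts showed where the libraries parted. The TUBA4A transcript ENST00000248437 was at 25.9, 8.30 and 8.62 FPKM in the controls and at 107, 94.6 and 89.8 with DMAG, so the groups also separated on this transcript alone. A second TUBA4A transcript, ENST00000392088, was at 5.45 FPKM in control replicate 1, listed at 0 in the other controls and in DMAG replicate 1, and at 0.0454 and 0.0213 in DMAG replicates 2 and 3. ENST00000447205 was at 0.121, 0 and 0 FPKM in the controls and at 0.192, 1.96 and 3.39 with DMAG. ENST00000425551 was at 0.927, 0.251 and 0.248 FPKM in the controls and at 0.415, 2.10 and 2.32 with DMAG. Control replicate 1 thus differed from the other controls both in the level and in the mixture of TUBA4A transcripts.

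For TUBA1A, the spread was split over 2 main transcripts. ENST00000550767 was at 16.1, 21.0 and 2.53 FPKM in the controls and at 26.5, 11.8 and 24.9 with DMAG. ENST00000301071 was at 21.4, 3.04 and 3.18 FPKM in the controls and at 3.28, 4.15 and 19.9 with DMAG, high in 1 library of each group. The third, ENST00000295766, was highest in those same libraries, at 5.15 FPKM in control replicate 1 and 3.03 in DMAG replicate 3, and between 0.0682 and 0.818 in the other 4.

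The 2 main TUBA1C transcripts differed in pattern. ENST00000301072 was at 101, 107 and 98.9 FPKM in the controls and at 81.2, 75.8 and 90.6 with DMAG, without overlap. ENST00000549183 was at 42.9, 26.9 and 47.7 FPKM in the controls and at 49.9, 80.4 and 29.0 with DMAG, with overlap. On the most abundant transcript alone the log2 difference of TUBA1C was -0.31, against -0.07 for the sum.

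The other members rested mainly on 1 transcript each. ENST00000336023 gave 99.2% of TUBA1B FPKM, and its 3 minor transcripts reached at most 6.38 FPKM in any library. ENST00000327892 gave 96.9% of TUBB FPKM. On this transcript alone the groups overlapped, at 487, 526 and 528 FPKM in the controls and at 466, 488 and 481 with DMAG. The minor TUBB transcript ENST00000330914 was at 21.2, 16.8 and 22.0 FPKM in the controls and at 21.4, 7.48 and 6.35 with DMAG. ENST00000591909 gave 92.8% of TUBB6 FPKM, and TUBB2A, TUBB2B, TUBB4B and TUBB1 had a single listed transcript each.

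**Figure D3:**
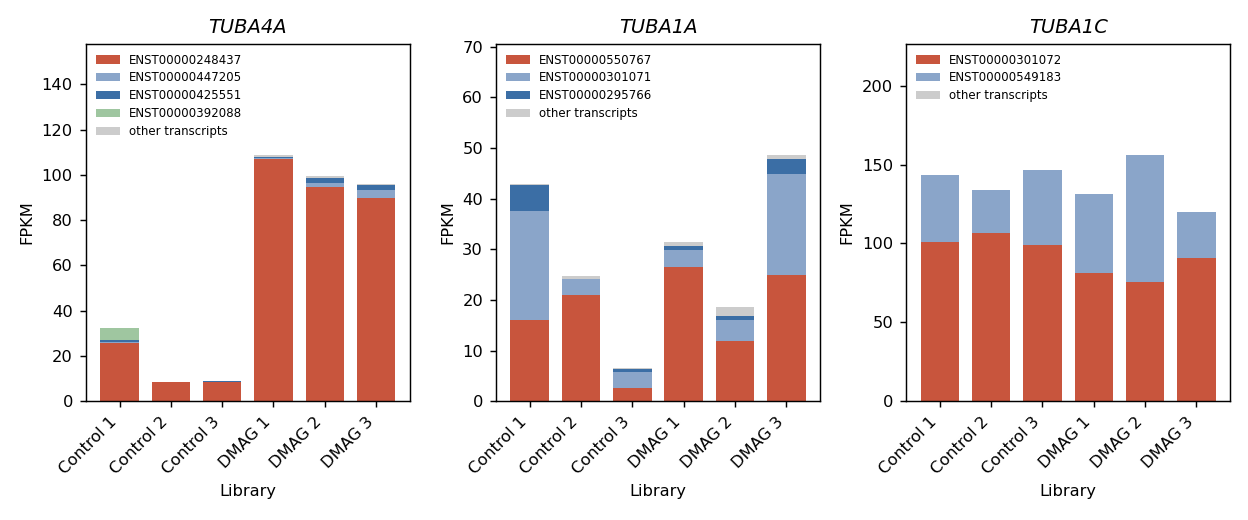
FPKM of single transcripts of TUBA4A, TUBA1A and TUBA1C in the 6 libraries, stacked to the gene's sum; grey marks all remaining transcripts. ENST00000392088 of TUBA4A appears as a visible layer only in control replicate 1, and ENST00000301071 of TUBA1A is high in control replicate 1 and DMAG replicate 3.

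Control replicate 1 lay more than 1 log2 unit above both other controls in 22 of the genes tested, TUBA4A among them with a gap of 1.76. The other genes with the largest gaps were ALB, CORO7-PAM16, AL136295.1, TMEM110-MUSTN1, CDC42, SELENOF and LRRC8D. CDC42 was at 171 FPKM in that library and at 59.2 and 55.0 in the other controls, and at 50.2 to 54.7 with DMAG. LRRC8D, as TUBA4A, had DMAG values above the 2 other controls, at 29.6, 29.1 and 31.3 FPKM against 12.6 and 12.4. Unlike TUBA4A, its level in control replicate 1, 32.0 FPKM, was above every DMAG library, so its groups overlapped. Control replicate 3 lay more than 1 log2 unit below both other controls in 22 genes, TUBA1A among them with a gap of 1.78. The other genes with the largest gaps there were AL662899.2, HIST1H2AD, CHTF8, ZNF587, C18orf32, AL135905.2 and MRM2. Over the 6 libraries, between 9 and 22 genes lay so far above and between 19 and 25 so far below the rest of their group.

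The genes whose log2(FPKM + 1) followed TUBA4A most closely over the 6 libraries were KLF2, KIAA2026, FKBP7, BLOC1S4 and PPP3CB. Pearson's r was 0.999 for the first 3 and 0.996 for the others, and 356 genes tested had an r above 0.95. These libraries fall into 2 groups, which any gene that differs between the groups shares, so the values only describe likeness. KLF2, which encodes a zinc-finger transcription factor, was at 0.577, 0.410 and 0.399 FPKM in the controls and at 0.763, 0.743 and 0.740 with DMAG. KIAA2026 was at 8.88, 7.19 and 7.29 FPKM in the controls and at 10.4, 10.5 and 10.3 with DMAG. In both genes control replicate 1 lay between the other controls and the DMAG libraries, as for TUBA4A.

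Genes beside TUBA4A on chromosome 2 were measured next. Of 11 listed neighbours, 8 were tested, of which 5 were higher with DMAG, 1 was lower and 2 did not pass (limma, Benjamini-Hochberg adjusted p under 0.05). These are 62.5% higher and 12.5% lower, against 22.4% and 26.1% of all genes tested. Their median log2 change was 0.52 against -0.01 over all genes tested. The list was chosen with earlier results of these data known. GLB1L, which encodes a beta-galactosidase-like protein, rose from 0.485 ± 0.0629 to 2.54 ± 0.168 FPKM (SD, n = 3 each; 5.24-fold; limma adjusted p = 8.6e-05). Its most abundant transcript alone gave a log2 change of 0.20 that did not pass (limma adjusted p = 0.63). ABCB6, a mitochondrial and plasma membrane porphyrin transporter gene, rose 4.73-fold from 0.318 ± 0.0606 to 1.51 ± 0.276 FPKM (limma adjusted p = 7.5e-04).

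DNAJB2, a co-chaperone gene, rose 1.79-fold from 4.08 ± 0.475 to 7.31 ± 0.357 FPKM (limma adjusted p = 8.5e-04). ATG9A, an autophagy lipid scramblase gene, rose 1.44-fold from 7.99 ± 0.601 to 11.5 ± 0.313 FPKM (limma adjusted p = 0.0014). STK16, a kinase gene on the strand opposite to TUBA4A, rose 1.55-fold from 6.03 ± 0.610 to 9.33 ± 0.448 FPKM (limma adjusted p = 0.0018; SD, n = 3 each for all of these). STK16 and TUBA4A overlap by 628 bases, TUBA4B overlaps TUBA4A too, and whether counting used the strand is not given in the sources used here, so reads of the shared bases cannot be told apart.

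ZFAND2B was at 9.05 ± 0.805 and 7.85 ± 0.507 FPKM and ANKZF1 at 14.3 ± 0.566 and 14.8 ± 0.230 in control and DMAG libraries, and neither passed (limma adjusted p = 0.096 and 0.40). DNPEP, an aminopeptidase gene 117303 bases away, fell from 26.9 ± 2.20 to 18.0 ± 1.05 FPKM (limma adjusted p = 0.0014). TUBA4B reached at most 0.104 FPKM, and PTPRN and RESP18 were listed at 0. The counts of 5 and 1 were the same without any 1 library. In a window of 100 kb on either side, set after the values were seen, 11 genes were tested besides TUBA4A, of which 8 were higher and 3 did not pass. Within 250 kb 14 were tested, 8 higher and 2 lower (DNPEP and SPEG), and within 500 kb 18 were tested, with the same 8 and 2. Over all genes tested 22.4% were higher and 26.1% lower. The list left out tested genes nearer than DNPEP, which the windows hold. Because the windows were set after the values were seen, and the list with earlier results known, nothing about the region is read from their counts or from the list's median.

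**Figure D4:**
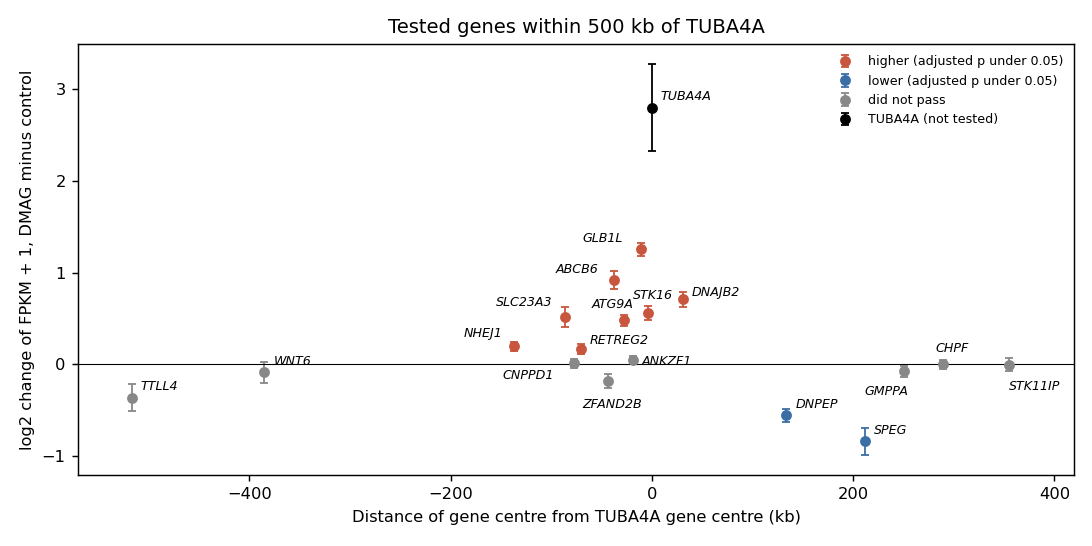
log2 change of FPKM + 1 (DMAG minus control, with its standard error) of genes tested within 500 kb of TUBA4A, against the distance between gene centres in kb; red is higher, blue lower and grey did not pass in limma, and TUBA4A (black) is shown without a test. The genes nearest to TUBA4A on either side, STK16, GLB1L and DNAJB2, lie at log2 changes of 0.56, 1.25 and 0.71.

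Of other tubulin genes, 14 were in the table, 4 were listed at 0 in each library and 5 were tested. Of these, 3 fell and 2 did not pass (limma, adjusted p under 0.05). The 3 were TUBE1, the epsilon tubulin of centrioles, from 15.1 ± 1.01 to 8.50 ± 0.844 FPKM (limma adjusted p = 6.4e-04), TUBA8, and TUBG1. TUBA8, a minor alpha isotype, went from 2.45 ± 0.390 to 1.49 ± 0.193 FPKM (limma adjusted p = 0.012, or 0.067 on the most abundant transcript). TUBG1, the main gamma tubulin of nucleation, went from 27.1 ± 2.92 to 21.8 ± 1.81 FPKM (limma adjusted p = 0.040). This call was lost on leaving out control replicate 2 or 3 or any DMAG replicate (limma adjusted p = 0.11, 0.11, 0.11, 0.052 and 0.074 in turn). TUBD1, the delta tubulin gene, was at 8.91 ± 1.15 and 7.45 ± 0.352 FPKM and did not pass (limma adjusted p = 0.087, or 0.041 without control replicate 2).

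Over 11 lists of genes that fold, modify, nucleate or bind tubulin, other tubulins included, 151 of 210 genes were tested. Of these, 28 were higher, 43 lower and 80 did not pass (limma, adjusted p under 0.05), with a median log2 change of -0.04. The share called was 47.0%, 18.5% higher and 28.5% lower, near the 48.6%, 22.4% and 26.1% of all genes tested, so these counts are no result about the tubulin pathway. By list, the share called was 60% for other tubulins, 57.1% for folding cofactors, 33.3% for prefoldin and 100% for CCT. It was 23.1% for genes of tubulin mRNA decay, 53.3% for modifying enzymes, 50% for nucleation and 15.4% for destabilisers. For microtubule-associated proteins it was 52%, for kinesins 38.5% and for dynein genes 48%. These shares are to be read against the 48.6% of all genes tested. Over all lists, on the most abundant transcript per gene, 18 were higher and 23 lower. The split was 41 higher and 25 lower with libraries scaled to the same sum. Without control replicate 1 it was 24 and 41, and without DMAG replicate 3 it was 21 and 41. Leads of the lists were picked by rule, and only some of them are described below. CCT6B, TTLL11, TTLL12, SVBP, AKAP9, HAUS3, HAUS8, MAP1S, MAPRE2, KIF13A, DYNC1H1, DYNLL2, ACTR1B and NUDC are named only to complete counts, after their values were seen, as are SPEG and the marker genes. In the microtubule-associated and dynein lists all genes that fell are named, but not all that rose.

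New tubulin chains are folded by the ring-shaped CCT chaperonin, to which prefoldin passes them. The CCT subunits were the list with the lowest median among the 11 lists, -0.42 against -0.01 over all genes tested. Of 9 subunit genes, 8 fell and 1 rose (limma, adjusted p under 0.05), but on the most abundant transcript alone only 4 were lower and 0 higher. CCT5 fell from 118 ± 6.95 to 59.4 ± 5.22 FPKM (limma adjusted p = 1.9e-04) and CCT6A from 159 ± 0.403 to 108 ± 1.69 (limma adjusted p = 6.8e-05). CCT3 fell from 166 ± 6.61 to 108 ± 4.16 FPKM (limma adjusted p = 1.8e-04), although its most abundant transcript alone gave a log2 change of -0.03 that did not pass. CCT8 fell from 189 ± 3.89 to 141 ± 2.02 FPKM (SD, n = 3 each). CCT6B, a little expressed variant subunit, rose 2.03-fold to 1.78 ± 0.567 FPKM, and was not called without control replicate 1 or 2 or DMAG replicate 1 or 2, or on its most abundant transcript. Of 6 prefoldin genes, PFDN2 and PFDN6 fell and 4 did not pass (limma). With libraries scaled to the same sum, 2 were higher and 1 lower. PFDN2 (20.4 ± 2.52 to 15.7 ± 1.25 FPKM, limma adjusted p = 0.030) was not called without control replicate 2 or 3 or DMAG replicate 1 or 2 (limma adjusted p = 0.086, 0.082, 0.070 and 0.086 in turn).

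After CCT, folding cofactors join the chains into dimers. Of 7 cofactor genes, TBCB, TBCD and ARL2 fell, TBCEL rose and 3 did not pass (limma, adjusted p under 0.05). TBCB, which helps to release alpha chains, fell from 21.1 ± 1.70 to 14.6 ± 0.719 FPKM, and TBCEL, which destabilises tubulin, rose 1.86-fold from 5.60 ± 0.693 FPKM (SD, n = 3 each). TBCA, the beta chain cofactor, was at 21.0 ± 7.38 and 24.6 ± 0.593 FPKM and did not pass (limma adjusted p = 0.35), but was called higher without control replicate 1 (limma adjusted p = 0.0017).

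Decay of tubulin mRNA on the ribosome starts with TTC5, which binds the first residues of nascent tubulin, and passes through SCAPER to the CCR4-NOT deadenylase. Of 13 genes of this machinery, 3 fell and 10 did not pass (limma, adjusted p under 0.05), or 2 fell and 1 rose with libraries scaled to the same sum. Without DMAG replicate 2 or without control replicate 3, 1 gene was called higher. TTC5 was at 14.8 ± 0.187 FPKM in the controls and fell to 10.9 ± 0.342 with DMAG (SD, n = 3 each; limma adjusted p = 5.8e-04). SCAPER fell from 7.29 ± 0.301 to 5.71 ± 0.289 FPKM (limma adjusted p = 0.0063). CNOT10, a CCR4-NOT subunit, fell from 11.9 ± 0.179 to 10.2 ± 0.215 FPKM (limma adjusted p = 0.0071), while its most abundant transcript alone gave 0.44 on the log2 scale. CNOT1, the scaffold subunit, was at 126 ± 5.33 and 115 ± 7.38 FPKM and did not pass (limma adjusted p = 0.098). It was called lower without DMAG replicate 3 (limma adjusted p = 0.028). On its most abundant transcript alone it was also called lower, with a log2 change of -1.83 (limma adjusted p = 0.042).

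Tubulin tails are modified by added or removed residues. Of 15 tested modifying enzyme genes, 3 rose and 5 fell (limma, adjusted p under 0.05), or 3 and 1 with libraries scaled to the same sum. TTLL3, a glycylase, rose 1.81-fold from 11.7 ± 2.33 to 21.1 ± 0.478 FPKM (SD, n = 3 each; limma adjusted p = 0.0034). KIAA0895L, a detyrosinating enzyme, rose from 2.70 ± 0.0483 to 3.49 ± 0.186 FPKM, and HDAC6, which removes acetyl groups from alpha tubulin, rose 1.24-fold (limma adjusted p = 0.012), although its most abundant transcript alone gave a log2 change of -0.075. The genes that fell were SIRT2, TTLL5, TTLL11, TTLL12 and SVBP, and 3 fell without control replicate 1, control replicate 2 or DMAG replicate 1. On the most abundant transcript alone 1 gene of the list rose and 1 fell. TTL, which restores the terminal tyrosine, was at 6.76 ± 0.169 and 6.10 ± 0.211 FPKM and did not pass (limma adjusted p = 0.080).

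Nucleation genes of the gamma-tubulin ring and of augmin numbered 20, of which 7 fell and 3 rose (limma, adjusted p under 0.05), or 5 and 4 with libraries scaled to the same sum. TUBGCP3, a core ring protein, fell from 59.0 ± 2.57 to 42.7 ± 2.14 FPKM, and HAUS4, an augmin subunit, from 20.6 ± 0.858 to 14.3 ± 0.702 (SD, n = 3 each), neither of which passed on the most abundant transcript alone. The genes that rose were AKAP9, HAUS3 and HAUS8. Only 1 rose without control replicate 2 or DMAG replicate 2, and 0 without control replicate 3 or DMAG replicate 3. On the most abundant transcript alone 1 rose and 4 fell, and AKAP9 gave a log2 change of -0.031.

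Among 13 tested destabilisers, 1 rose, 1 fell and 11 did not pass (limma, adjusted p under 0.05), or 4 and 1 with libraries scaled to the same sum. KATNAL2, a katanin-like severing gene, rose 3.41-fold from 4.15 ± 0.197 to 14.2 ± 0.995 FPKM (SD, n = 3 each; limma adjusted p = 3.9e-05). STMN3, a stathmin that binds dimers, fell from 1.42 ± 0.243 to 0.665 ± 0.00431 FPKM, and 2 genes fell without control replicate 1. STMN1, the main stathmin, was at 246 ± 22.8 and 217 ± 22.2 FPKM and did not pass (limma adjusted p = 0.17).

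Of 25 tested genes of microtubule-associated and plus-end proteins, 10 rose and 3 fell (limma, adjusted p under 0.05), or 5 and 2 on the most abundant transcript alone. ARHGEF2, which encodes a microtubule-bound exchange factor, rose 1.78-fold from 99.2 ± 0.852 to 177 ± 1.35 FPKM (SD, n = 3 each; limma adjusted p = 2.5e-05). MAP4, the main lattice-binding protein outside neurons, fell from 20.4 ± 1.72 to 12.5 ± 0.602 FPKM (limma adjusted p = 6.4e-04, or 0.56 on the most abundant transcript). MAP1S and MAPRE2 also fell. GTSE1 rose from 21.5 ± 0.615 to 28.6 ± 1.11 FPKM (limma adjusted p = 7.7e-04). TACC1 rose from 29.1 ± 1.07 to 36.1 ± 0.615 FPKM (limma adjusted p = 0.0015, or 0.34 on the most abundant transcript). Without DMAG replicate 1 only 6 of the list rose, and without control replicate 3, 5 fell.

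Of 13 tested kinesin genes of transport, 2 rose and 3 fell (limma, adjusted p under 0.05), or 4 and 0 with libraries scaled to the same sum. KIF13B rose 1.54-fold from 3.17 ± 0.370 to 4.89 ± 0.206 FPKM, KIF13A, from below 1 FPKM, rose as well, and KIF3B, KIFAP3 and KIF21B fell. A single kinesin rose on leaving out any library but control replicate 2. KIF21B was not called without control replicate 1 or 2 (limma adjusted p = 0.052 and 0.058), and KIFAP3 gave a log2 change of 0.10 on its most abundant transcript. Of 25 tested genes of dynein, dynactin and their adaptors, 7 rose and 5 fell (limma, adjusted p under 0.05), or 11 and 1 with libraries scaled to the same sum. DYNC1LI1, a dynein light intermediate chain, fell from 15.9 ± 0.161 to 11.8 ± 0.496 FPKM, and HOOK3, an adaptor, rose from 10.0 ± 0.314 to 12.8 ± 0.114 (SD, n = 3 each). DYNC1H1, DYNLL2, ACTR1B and NUDC also fell, but 2 of the list fell without control replicate 2, DMAG replicate 1 or DMAG replicate 2, and 3 without control replicate 3. On the most abundant transcript alone 5 of the list rose and 3 fell.

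**Figure D5:**
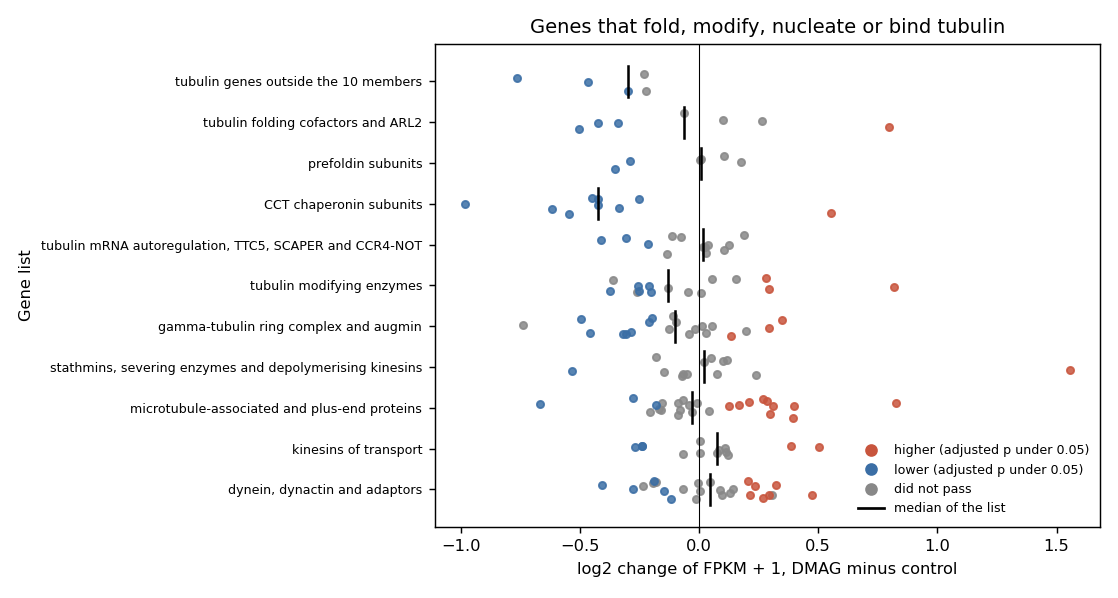
log2 change of FPKM + 1 (DMAG minus control) of each tested gene in 11 lists of tubulin folding, modification, nucleation and binding; red is higher, blue lower and grey did not pass in limma, and black bars are list medians. The CCT subunits have a median of -0.42, and the microtubule-associated list holds the most genes that rose, 10 of 25.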

How the data were processed

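Of 12 samples, the 6 RNA-Seq libraries (3 control, 3 DMAG) were used; small RNA libraries and tables of lncRNAs and circular RNAs were not used here. The authors deposited FPKM values per transcript for 83027 mRNA transcripts. Per the submitters' processing notes, the tools were StringTie 1.3.3, HISAT2 2.0.4 and Bowtie and the build was GRCh38; which step each served is not given there. Read counts behind the FPKM values are unknown, so no counting intervals are given.

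Transcripts were summed per gene. A gene entered the fit if it averaged 0.5 FPKM or more over the 6 libraries (10394 genes). The fit used log2(FPKM + 1) values in limma 3.58.1 (R 4.3.3, empirical Bayes, mean trend), Benjamini-Hochberg adjustment over all genes tested and a threshold of 0.05. This scale understates changes of low genes. On simulated data, 91.5% of 200 genes changed by 1 log2 unit were recovered among 10394, and 5.18% of calls were false. In the data 48.6% of genes were called and many changes were smaller than 1 log2 unit. The simulated rates therefore do not describe the calls made here. Members, gene lists and alternatives were chosen with earlier results of these data known. The rule for named genes took all members, up to 4 genes of smallest p per list plus TTC5, STMN1, MAP4, HDAC6, TTL, TBCA and TUBG1, all listed TUBA4A neighbours, the 5 genes most like TUBA4A, the 8 largest gaps of a library that stood apart, and member transcripts of at least 1 FPKM in a group. Coordinates, gene spans and promoters come from RefSeq, GRCh38.p14. Alternatives changed the pseudocount, filter, scaling, unit of test, replicate block and libraries.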

Additional observations from a re-analysis of the deposited data

How the results depend on the processing

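TUBA4A had a higher level with DMAG under each alternative run. When each library was left out, the log2 difference was 2.49 to 3.40. Its share of alpha FPKM was then higher by 6.10 to 7.03 percentage points. Because TUBA4A was chosen with this contrast known, these values are a description and lend the difference no support. With the most abundant transcript per gene, 1768 genes were lower, and 18 pathway genes were higher and 23 lower. With libraries scaled to the same sum, 25 pathway genes were lower. Leaving out each library gave 1903 to 2150 genes higher, 2303 to 2443 lower, and 21 to 24 pathway genes higher and 34 to 41 lower. On the most abundant transcript the direction turned for CNOT10 (0.44), HDAC6 (-0.075), KIFAP3 (0.10) and AKAP9 (-0.031). In that setting 22 other named calls were lost (TUBA8, ARL2, PFDN2, PFDN6, CCT3, SCAPER, SIRT2, KIAA0895L, TTLL5, HAUS4, TUBGCP3, TUBGCP5, MAP4, TACC1, DYNC1LI1, DCTN4, GLB1L, CCT6B, TTLL11, SVBP, HAUS3 and DYNLL2). The call gained there was CNOT1, lower at a log2 change of -1.83 (limma adjusted p = 0.042). The cause of these changes was not tested. With libraries scaled to the same sum, 15 named calls were lost (TUBG1, PFDN2, CNOT10, TTLL5, TTLL11, TTLL12, SVBP, KIF3B, KIFAP3, KIF21B, MAP1S, NUDC, ACTR1B, DYNC1H1 and DYNLL2) and 5 gained. Among members, the direction turned for TUBA1A, TUBA1C and, without control replicate 1, TUBB2B, all with overlapping groups.

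Whether replicate numbers pair the samples is not given by the labels. Deviations of same-numbered libraries correlated at -0.0048, 0.043 and 0.027, and those of differently numbered libraries at -0.048 to 0.019. With 3 libraries per group these values cannot decide whether the samples were paired. With a replicate block 2053 genes were higher and 2438 lower, and 24 and 40 pathway genes; CNOT1 was then called lower (limma adjusted p = 0.042), 9 named calls were lost (CCT6B, TTLL11, AKAP9, HAUS3, MAP1S, KIF13A, DYNLL2, ACTR1B and NUDC), and no other named call changed. The unknown depth of the FPKM values limits what can be said of TUBB2B and TUBB1.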
